A study of Homo sapiens with 12 samples.

Results

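The nuclear-encoded mitochondrial protein import machinery was followed across polysome and light gradient fractions of HepG2 cells treated with sorafenib or vehicle. The genes were chosen by symbol from a list of 32 import factors: 31 rows of the deposited count table carried a listed symbol, out of 57353 rows in all, and 1 listed gene was not analysed here. All 31 passed the filter on low counts that left 14955 genes for testing. They were divided by role into 12 small subunits and chaperones, 12 large receptors, channels and assembly factors, and 7 other import factors. The class names follow these roles, and protein length was not used to set them. HepG2 is a human hepatocellular carcinoma line, labelled WT in all groups. Sorafenib, a multikinase inhibitor used against liver cancer, was given at 10 µM for 12 h, and control cultures received the solvent DMSO. Lysates made in cycloheximide, which holds ribosomes on mRNA, were run through sucrose gradients. The 4 groups, with 3 libraries each, were the sorafenib polysome fraction, the vehicle polysome fraction, the sorafenib light fraction and the vehicle light fraction. The light fraction pooled low-molecular complexes, free ribosomal subunits and single ribosomes, so it held both untranslated mRNA and mRNA with 1 ribosome. By their titles the 12 libraries came from 6 cultures, each normally built from several dishes and split into both fractions. Nothing in the labels says that the cultures of a treatment were grown separately, so the spread among them may be technical. All groups stem from a single line. No total RNA library was analysed here, and a change on polysomes and a change of the whole mRNA pool cannot be told apart.

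Most mitochondrial proteins are made on cytosolic ribosomes and enter through the TOM complex of the outer membrane, where receptors recognise precursors and small subunits stabilise the pore. From there, the small TIM chaperones of the intermembrane space escort hydrophobic carriers to the TIM22 complex, the TIM23 complex and its motor draw presequence proteins into the matrix, and the SAM complex builds outer-membrane barrels. The matrix processing peptidase removes presequences, the disulfide relay folds small cysteine-rich proteins, and the insertase OXA1L places proteins made on mitochondrial ribosomes into the inner membrane. Liver cells are rich in mitochondria and depend on this import for their metabolism.

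Library totals ran between 511065 and 13336689 counts, and the 3 sorafenib light libraries were among the shallowest with 2060384, 511065 and 4989312 counts. In the shallowest, sorafenib light library 2, the median import gene had 28 counts and MTX1 had 2, so values of that group are the least precise. The lowest correlation of a library's log2 values with another library of its group was 0.797 in that group, and 0.951 or higher in the other 3 groups. All 8 fixed hepatoma markers, such as ALB and APOA1, were detected in all 12 libraries. They took 3.08%, 3.74% and 3.08% of the counts in sorafenib polysome libraries, against 1.30%, 1.48% and 0.748% in vehicle polysome libraries. In the light fraction they took 2.77%, 2.89% and 2.74% with sorafenib, against 0.757%, 0.987% and 0.463% with vehicle, so their share was higher with sorafenib in both fractions without overlap. Of 8 markers of leukocytes, endothelium and fibroblasts, 7 had at most 16 counts summed over the 3 libraries of a group, whereas LYZ had 13888 in sorafenib polysome, 13750 in vehicle polysome, 1854 in sorafenib light and 4439 in vehicle light libraries. The part of these levels in any result was not tested. The label of sorafenib polysome library 3 holds the tag S1, which is also that of vehicle light library 1, whereas each other tag follows the library's number. What the tag stands for is not stated, and whether that library came from another run was not tested. Each library pools whole cultures, so a lower level in every cell and a loss from a portion of the cells cannot be told apart. Levels are given as CPM, counts scaled to a common library size after TMM normalization, and changes as log2 fold changes ± SE from edgeR's quasi-likelihood test, called at an adjusted p under 0.05.

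The start regions of the import genes are shown first, because members that moved in opposite directions on polysomes can be set side by side there. RefSeq start windows of assembly GRCh38.p14 were matched for 28 of the 31 genes. The letters CCGGAAG or CTTCCGG on either strand, the core recognised by ETS-family transcription factors, occurred in 12 of 28 windows of 300 bases (42.9%), against 2250 of 15843 windows of protein-coding genes (14.2%). They stood in 4 of 9 windows of the small class and 6 of 12 windows of the large class. By the sorafenib change on polysomes they stood in 3 of 6 windows of genes that were higher, 5 of 15 of genes that were lower and 4 of 7 of genes past neither threshold. A start of C followed by 4 pyrimidines, the form of terminal oligopyrimidine mRNAs, was looked for only at the annotated start on the gene's own strand, and was found for OXA1L, TOMM20, TOMM7 and TOMM70, which is 4 of 28 (14.3%) against 4.56% of the protein-coding windows. The letters GCGCA directly followed by TGCGC, an NRF1 site, stood in 1 window (3.57% against 1.77%), that of CHCHD4. The letters AAGATGG directly followed by CGGC, the core of a translation initiator of short leaders known as TISU, stood in 2 windows (7.14% against 1.33%), those of PMPCA and TIMM50. The shorter YY1 letters contained in that core, AAGATGG followed by C, stood in the same 2 windows (7.14% against 3.84%). The NRF1, TISU and YY1 letters were searched on both strands. All protein-coding windows were used for comparison, whether or not the gene passed the count filter, and tested genes alone were not compared. The 60 bases before and the 20 bases from the RefSeq start are given for 6 members, with the ETS letters in capitals: 2 small TIM genes that fell on polysomes, the receptors TOMM20 and TOMM70, and the risers OXA1L and SAMM50.
TIMM8A: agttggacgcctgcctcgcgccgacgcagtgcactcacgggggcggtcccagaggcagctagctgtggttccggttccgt
TIMM10: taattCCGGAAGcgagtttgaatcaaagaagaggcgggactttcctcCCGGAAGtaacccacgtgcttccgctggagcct
TOMM20: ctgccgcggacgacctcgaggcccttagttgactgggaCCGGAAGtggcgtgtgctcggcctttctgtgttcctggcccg
TOMM70: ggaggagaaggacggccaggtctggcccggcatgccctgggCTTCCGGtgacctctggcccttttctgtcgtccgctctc
OXA1L: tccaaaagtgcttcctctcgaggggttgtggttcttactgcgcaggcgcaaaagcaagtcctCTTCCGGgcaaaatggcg
SAMM50: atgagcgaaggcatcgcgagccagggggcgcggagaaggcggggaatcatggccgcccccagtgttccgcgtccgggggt
In GRCh38.p14 these windows lie at chrX:101348723-101348802 on the minus strand for TIMM8A, chr11:57530735-57530814 on the minus strand for TIMM10, chr1:235128818-235128897 on the minus strand for TOMM20 and chr3:100401070-100401149 on the minus strand for TOMM70. OXA1L lies at chr14:22766628-22766707 and SAMM50 at chr22:43955382-43955461, both on the plus strand. Within these 80 bases TIMM10 held 2 ETS matches and TIMM8A none, and both genes fell on polysomes. TOMM70 held a match and SAMM50 none, and both genes rose. A match is a description of letters at 1 annotated start per gene, and start use in these cells was not measured.

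The first comparison asked how sorafenib changed the import mRNAs found on polysomes. The small subunits and chaperones were lower: 11 of 12 fell, where 28.8% of all genes tested fell, and none rose. Their median log2 fold change was -1.28, against -0.26 over all genes tested. Among the 12 large receptors, channels and assembly factors 3 rose, 3 fell and 6 passed neither way, with a median of -0.42. The classes were chosen with earlier results of these data known, so the contrast between them is a description and no independent test. The 7 other factors split into 3 rises, 3 falls and 1 gene without a call. Over all 31 genes, 6 rose and 17 fell, which is 19.4% and 54.8%, whereas 20.9% of all genes tested rose and 28.8% fell. The balance over all genes depends on the processing. In a fit of the 6 polysome libraries alone, 54.9% of all calls were rises, against 42.1% in the main analysis. The median over all genes was then 0.02, and 6 import genes rose and 14 fell. The sorafenib and vehicle polysome libraries did not overlap for 6 genes that were higher and 20 that were lower, against 25.3% and 35% of all genes. The small class stayed at 9 to 12 falls and no rise in 19 of 20 alternative analyses, and had 5 falls when rows with hardly any counts were kept in the fit. In the plot of sorafenib effects by fraction, the small class lies to the left of 0 on polysomes, and the large class spreads to both sides.

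**Figure D1:**
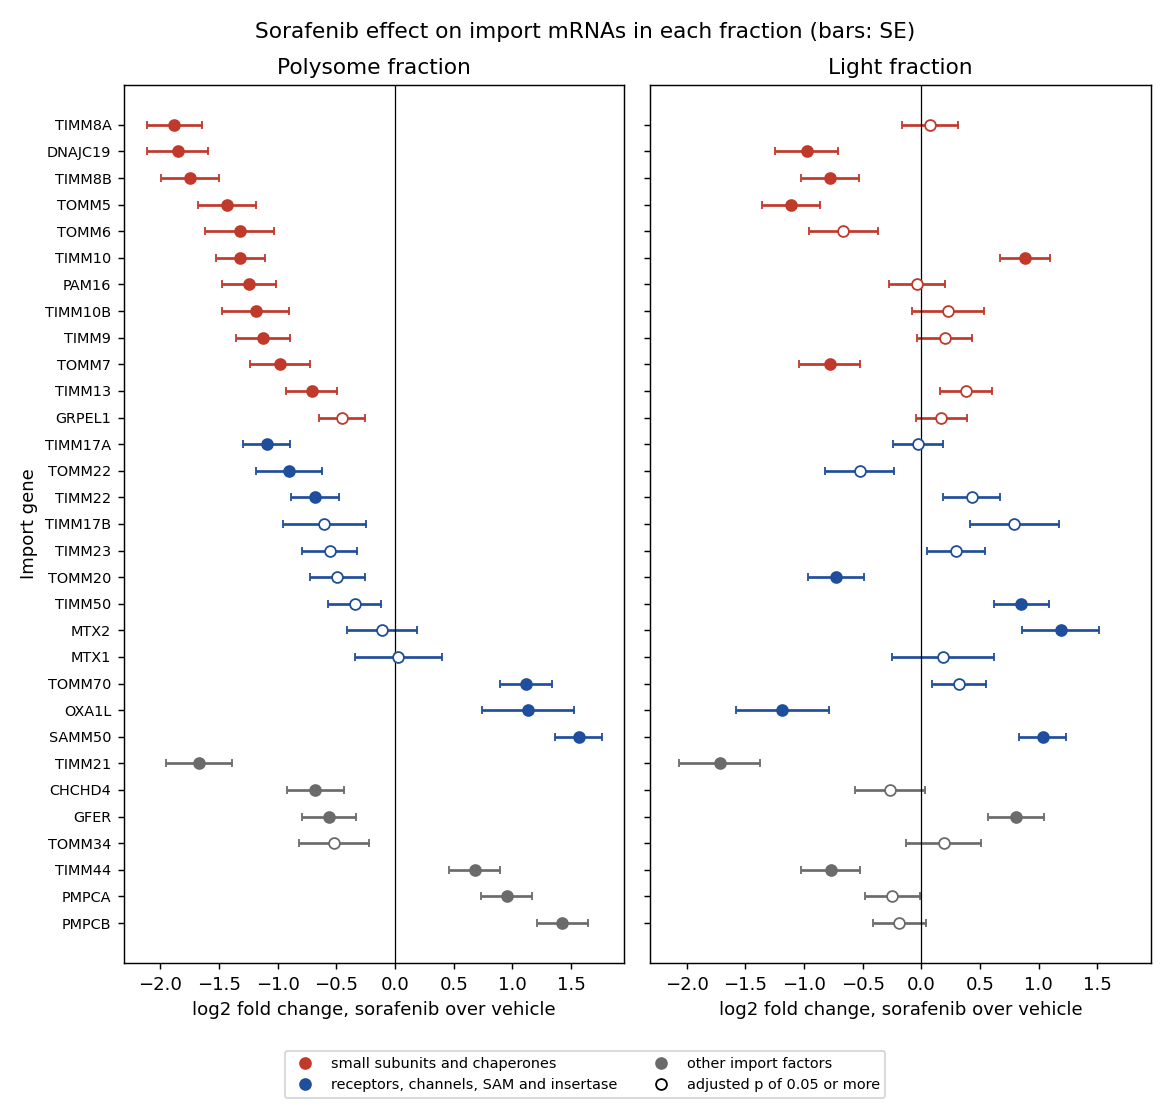
Log2 fold change of each import gene, sorafenib over vehicle, in the polysome fraction (left panel) and the light fraction (right panel), with bars of 1 SE and filled points for an adjusted p under 0.05. Small subunits and chaperones (top block) run between -1.88 and -0.45 on polysomes, large receptors and channels (middle block) between -1.10 and 1.56.

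All 6 small TIM chaperones fell on polysomes, with a median log2 fold change of -1.25. TIMM8A, which pairs with TIMM13 in a hexamer and is mutated in deafness-dystonia syndrome, had 32.4, 43.5 and 31.4 CPM in sorafenib polysome libraries, against 137, 152 and 108 CPM in vehicle polysome libraries. The groups lay far apart, and the fall was 1.88 ± 0.23 on the log2 scale (adjusted p = 6.2e-06). TIMM8B, its close relative, had 53.2, 67.7 and 51.3 CPM with sorafenib, against 224, 160.4 and 194 CPM with vehicle, a log2 change of -1.75 ± 0.24 (adjusted p = 1.93e-05). Its highest sorafenib library was below its lowest vehicle library. TIMM10 and TIMM9 form the other hexamer, which carries metabolite carriers across the intermembrane space. TIMM10 had 129, 126 and 113 CPM in sorafenib polysome libraries, against 281, 311 and 325 CPM in vehicle ones (log2 change -1.32 ± 0.21). TIMM9 had 25.5, 31.5 and 30.4 CPM with sorafenib, against 84.6, 56.2 and 49.9 CPM with vehicle (log2 change -1.13 ± 0.23). For both partners the groups did not overlap, and TIMM9 varied more among vehicle libraries than TIMM10. TIMM10B, which joins the hexamer at the TIM22 complex, had 40.8, 51.9 and 34.2 CPM with sorafenib, against 97.6, 114 and 78.3 CPM with vehicle (log2 change -1.19 ± 0.29). TIMM13 had 191, 153 and 166 CPM with sorafenib, against 239, 319 and 278 CPM with vehicle. Its fall of 0.71 on the log2 scale (SE 0.22, adjusted p = 0.0116) was the least of the 6, and it kept its call in 10 of 20 alternatives.

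**Figure D2:**
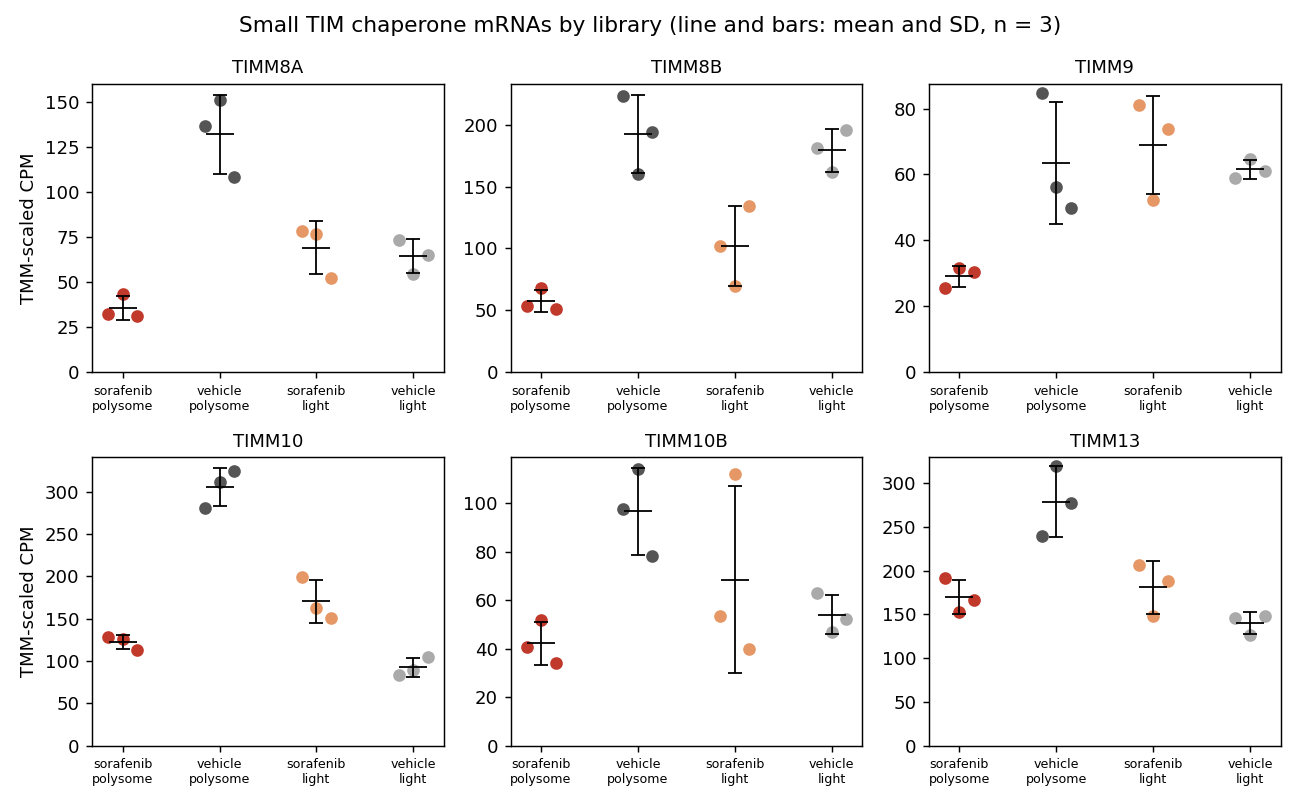
CPM of the 6 small TIM chaperone genes in each of the 12 libraries, with the mean and SD of each group of 3. In each panel the sorafenib polysome libraries lie below the vehicle polysome libraries, while in the light fraction the order differs between genes.

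The 3 small TOM subunits also fell. TOMM5 had 125, 133 and 125 CPM in sorafenib polysome libraries, against 384, 259 and 391 CPM in vehicle ones, and fell by 1.43 on the log2 scale (SE 0.25, adjusted p = 0.000139). TOMM6 averaged 199 ± 31.9 CPM with sorafenib and 499 ± 75.2 CPM with vehicle, and TOMM7, which in human cells also helps hold the kinase PINK1 at the outer membrane, averaged 255 ± 37.4 CPM with sorafenib and 503 ± 22.3 CPM with vehicle (SD, n = 3 each). Their log2 changes were -1.32 ± 0.30 and -0.98 ± 0.26. The import motor draws proteins through TIM23 with the HSPA9 chaperone, and its co-chaperones followed the small subunits in part. DNAJC19, the J protein that stimulates HSPA9, had 19.2, 36.8 and 24.8 CPM with sorafenib, against 124, 86.8 and 80.9 CPM with vehicle (log2 change -1.85 ± 0.26, adjusted p = 2.01e-05). All sorafenib values of DNAJC19 were below all vehicle values. PAM16, the J-like regulator of the motor, averaged 25.1 ± 0.991 CPM with sorafenib and 59.4 ± 6.81 CPM with vehicle (SD, n = 3 each) and changed by -1.24 ± 0.23. Its counts ran close to those of the readthrough gene CORO7-PAM16 (330 and 391 in sorafenib polysome library 1, 833 and 830 in vehicle polysome library 1), so reads of these overlapping genes cannot be told apart and the PAM16 value is uncertain. GRPEL1, the nucleotide exchange factor, averaged 50.0 ± 1.17 CPM with sorafenib and 68.6 ± 6.65 CPM with vehicle, and its log2 change of -0.45 ± 0.20 did not pass (adjusted p = 0.0629).

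The receptors and channels did not move as 1 group on polysomes. TOMM70, the receptor that takes precursors from cytosolic chaperones, had 138, 139 and 132 CPM in sorafenib polysome libraries, against 74.2, 69.3 and 45.8 CPM in vehicle ones. It rose by 1.11 ± 0.22 on the log2 scale (adjusted p = 0.000461), with no overlap between the groups. TOMM22, the central receptor of the same complex, fell: it averaged 87.4 ± 5.35 CPM with sorafenib and 164 ± 23.7 CPM with vehicle (SD, n = 3 each; log2 change -0.90 ± 0.28, adjusted p = 0.013). TOMM20, the presequence receptor, averaged 276 ± 35.4 CPM with sorafenib and 388 ± 19.9 CPM with vehicle, and its log2 change of -0.49 ± 0.23 did not pass (adjusted p = 0.0891). In the inner membrane, TIMM17A of the TIM23 channel fell by 1.10 on the log2 scale (SE 0.20, adjusted p = 0.000233), with 65.5 ± 9.46 CPM with sorafenib and 139.9 ± 9.54 CPM with vehicle (SD, n = 3 each). Its paralog TIMM17B had 72.7, 58.2 and 53.9 CPM with sorafenib, against 56.4, 82.6 and 141 CPM with vehicle, overlapping groups that gave -0.60 ± 0.36 (adjusted p = 0.165). TIMM23 averaged 78.9 ± 5.78 CPM with sorafenib and 116 ± 31.2 CPM with vehicle and missed the threshold at -0.56 ± 0.23 (adjusted p = 0.0513). TIMM23 has the near-identical copy TIMM23B, and the split of reads between them is uncertain. TIMM23B had 249 counts against 959 for TIMM23 in sorafenib polysome library 1, and 109 against 1372 in vehicle polysome library 1. TIMM23B itself rose on polysomes (log2 change 1.07 ± 0.27, adjusted p = 0.00319), with groups that did not overlap. TIMM22, the carrier channel, fell by 0.68 on the log2 scale (SE 0.21, adjusted p = 0.0102), with 20.9 ± 1.07 CPM with sorafenib and 33.7 ± 5.97 CPM with vehicle (SD, n = 3 each). TIMM50, the TIM23 receptor, did not pass at -0.34 ± 0.22 (adjusted p = 0.208).

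The 6 genes that rose on polysomes were TOMM70, SAMM50, OXA1L, PMPCA, PMPCB and TIMM44. SAMM50, the barrel-building channel of the SAM complex, had 70.9, 60.0 and 62.5 CPM with sorafenib, against 22.3, 21.6 and 21.5 CPM with vehicle, and rose by 1.56 ± 0.20 on the log2 scale (adjusted p = 6.95e-06). Both groups were tight and well apart. Its partners in the SAM complex did not pass: MTX2 had 71.5, 69.1 and 66.4 CPM with sorafenib, against 72.4, 47.3 and 103 CPM with vehicle, and changed by -0.11 ± 0.30. MTX1 was counted at only 2 to 68 reads per library and changed by 0.03 ± 0.37; its relation to the copy MTX1P1 makes it uncertain as well. Both subunits of the processing peptidase rose. Its catalytic subunit PMPCB had 54.3, 52.7 and 54.4 CPM with sorafenib, against 22.6, 14.9 and 22.1 CPM with vehicle (log2 change 1.43 ± 0.22, adjusted p = 4.61e-05). Its substrate-binding subunit PMPCA had 117, 114 and 107 CPM with sorafenib, against 69.1, 59.5 and 46.1 CPM with vehicle (log2 change 0.95 ± 0.22). For neither subunit did the groups overlap. OXA1L had 48.9, 53.5 and 51.3 CPM with sorafenib, against 35.7, 18.3 and 15.9 CPM with vehicle, a rise of 1.13 ± 0.39 (adjusted p = 0.0228) with a wide spread in vehicle. TIMM44, which tethers the motor to the channel, had 30.5, 24 and 31.1 CPM with sorafenib, against 16.2, 15.8 and 21.1 CPM with vehicle (log2 change 0.68 ± 0.22, adjusted p = 0.0144). The rises of TIMM44 and OXA1L each held in 16 of 20 alternatives, the other 4 rises in all 20.

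**Figure D3:**
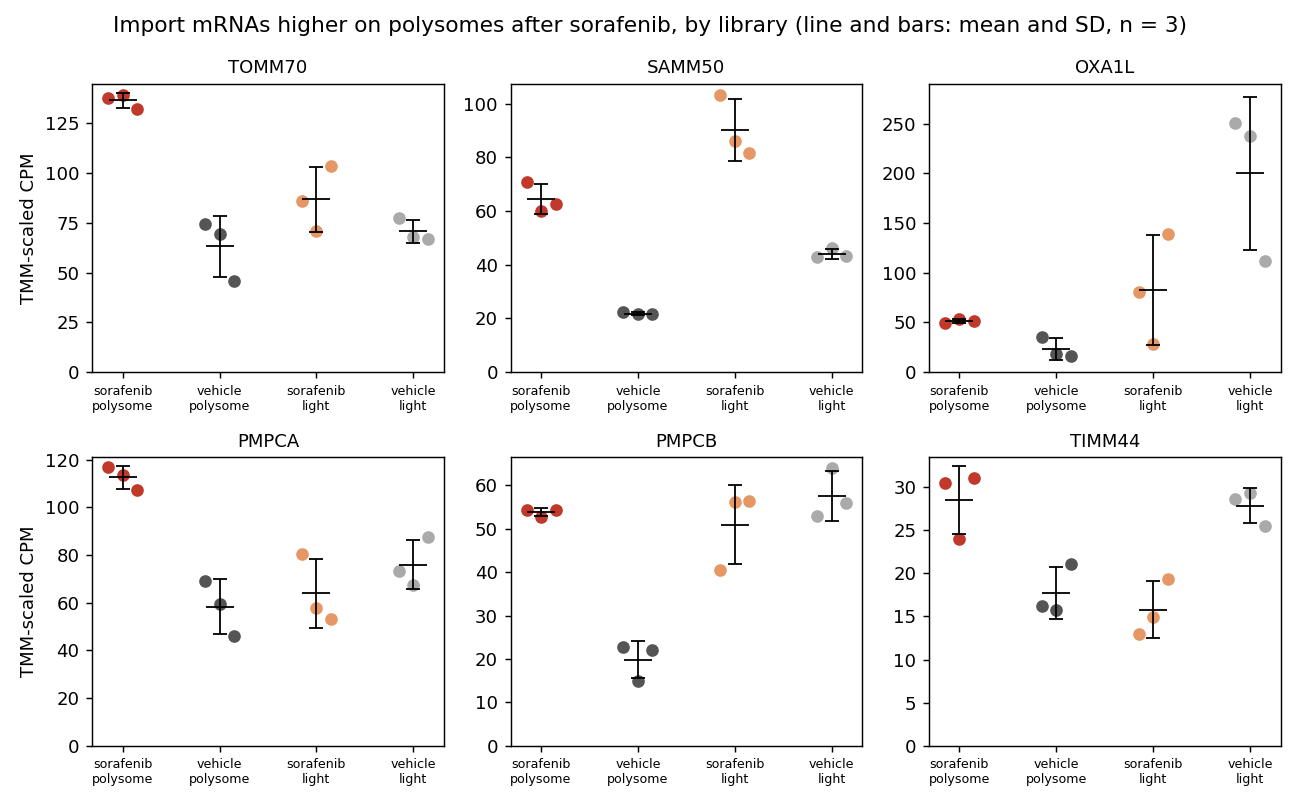
CPM of the 6 import genes that were higher on polysomes after sorafenib, in each of the 12 libraries, with the mean and SD of each group of 3. The sorafenib polysome libraries lie above the vehicle polysome libraries in each panel, and in all 6 panels the highest vehicle library is of the light fraction.

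Of the remaining factors TIMM21, an accessory subunit that links TIM23 to the respiratory chain, fell the most, with 7.02, 5.9 and 8.4 CPM in sorafenib polysome libraries, against 21, 19 and 27.6 CPM in vehicle ones. The fall was 1.67 on the log2 scale (SE 0.28, adjusted p = 9.56e-05). The disulfide relay oxidises the small TIM proteins on arrival: its receptor CHCHD4 averaged 17 ± 0.438 CPM with sorafenib and 27.3 ± 6.83 CPM with vehicle, and its oxidase GFER 89.6 ± 5.76 CPM with sorafenib and 133 ± 24.7 CPM with vehicle (SD, n = 3 each). Both passed the threshold narrowly, at -0.68 ± 0.24 (adjusted p = 0.0262) and -0.57 ± 0.23 (adjusted p = 0.0463). TOMM34, a cytosolic co-chaperone of precursors, had overlapping groups and did not pass (-0.52 ± 0.30, adjusted p = 0.149). Of the 23 polysome calls, 10 held in all 20 alternatives, those of TIMM8A, TIMM8B, TIMM10, TOMM5, DNAJC19, TIMM21, PMPCA, PMPCB, TOMM70 and SAMM50. GFER held in 1 and CHCHD4 in 5, and the falls of TOMM7, TOMM22, TIMM13, TIMM22, CHCHD4 and GFER were lost without vehicle light library 1 and also without vehicle light library 2, which left 11 falls each time.

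The same counts were also read inside each library, where no scaling between libraries enters. This recount is no separate support for the contrast between small and large members. A summed share weighs the best-counted genes most. Of the small class these were TOMM7, TOMM6 and TOMM5 in vehicle polysome libraries, with means of 503, 499 and 345 CPM. The 12 small subunits and chaperones took 45.3% ± 2.37 of the counts of all import genes in sorafenib polysome libraries, against 62.3% ± 1.82 in vehicle polysome libraries (SD, n = 3 each). In the light fraction they took 56.7% ± 1.34 with sorafenib and 61.9% ± 3.44 with vehicle. The polysome groups lie well apart, and the light groups lie close together without overlapping. The small class took 0.153% ± 0.00803 of all counts in sorafenib polysome libraries, against 0.321% ± 0.0213 in vehicle ones, while the large class took 0.137% ± 0.00716 with sorafenib and 0.152% ± 0.0178 with vehicle. A separate measure compared the receptors TOMM20 and TOMM70, both of the large class, so it does not bear on small against large members. Their log2 count ratio was 1.01 ± 0.19 in sorafenib polysome libraries, against 2.65 ± 0.44 in vehicle ones. In the light fraction that ratio was 1.77 ± 0.15 with sorafenib and 2.82 ± 0.12 with vehicle (SD, n = 3 each). In both fractions the sorafenib and vehicle libraries did not overlap. These shares and ratios are descriptions without a test.

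**Figure D4:**
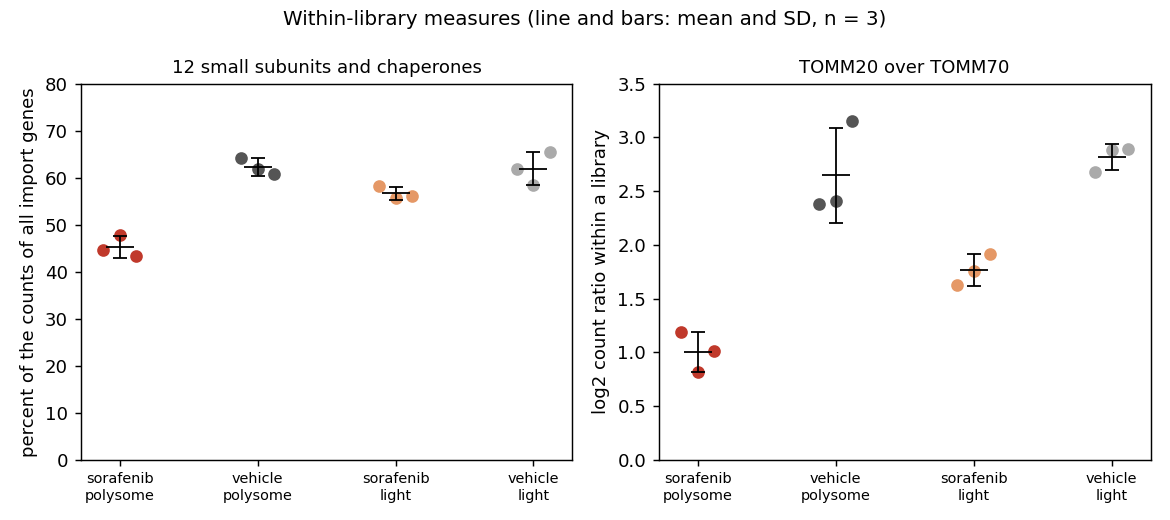
Left, percent of the counts of all import genes that belong to the 12 small subunits and chaperones, per library; right, log2 ratio of TOMM20 to TOMM70 counts within each library, with mean and SD of 3 libraries. The sorafenib polysome libraries are the lowest in both panels, at 45.3% and 1.01 on average.

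Of 11 ratios between partner genes, the sorafenib and vehicle polysome libraries overlapped for 6 and did not for 5. TIMM8A over its hexamer partner TIMM13 had a log2 count ratio of -2.26 ± 0.39 in sorafenib polysome libraries, against -1.08 ± 0.28 in vehicle ones, and the 2 groups did not overlap. TIMM9 over TIMM10 was -2.08 ± 0.23 with sorafenib and -2.30 ± 0.51 with vehicle, overlapping values. SAMM50 over MTX2 was -0.10 ± 0.10 with sorafenib and -1.70 ± 0.57 with vehicle on polysomes, without overlap. PMPCA over PMPCB was 1.06 ± 0.07 with sorafenib and 1.55 ± 0.47 with vehicle, and these overlapped (SD, n = 3 for each ratio). Within a pair the 2 genes differ in length, so each ratio is read between groups only.

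The second comparison asked what sorafenib changed in the light fraction. There, 5 import genes rose and 8 fell, which is 16.1% and 25.8% of the 31, whereas 11.7% of all genes tested rose and 17.7% fell. The small class held 1 rise, 4 falls and 7 genes without a call, with a median log2 fold change of 0.02, and the large class 3 rises and 2 falls, with a median of 0.31. The median over all genes tested was -0.12. The groups did not overlap for 5 genes that were higher and 8 that were lower (16.1% and 25.8%), close to the 15% and 24.6% of all genes. Using library totals as the only scale moved the median of all genes to 0.31 and gave 12 rises and 2 falls, so the balance of directions in the light fraction depends on scaling. Leaving out sorafenib light libraries 1 and 2, the 2 shallowest of the 12, leaves 1 sorafenib light library. The fit takes that library to vary like the other groups, so a call lost or gained there says nothing about its firmness. This fit is 1 of the alternatives counted in the report, and a call that held in it carries no added weight.

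The largest fall in the light fraction was that of TIMM21. It had 4.7, 9.35 and 8.64 CPM with sorafenib, against 29.9, 28.1 and 14.9 CPM with vehicle. Its log2 change was -1.72 ± 0.34 (adjusted p = 0.00122), nearly that on polysomes. This fall is the 1 light-fraction call that held in all 20 alternatives. In the shallow sorafenib light libraries 1 and 2 the TIMM21 levels stand for few reads, so the size of its fall is imprecise. TOMM5 had 183, 155 and 265 CPM with sorafenib, against 402, 452 and 464 CPM with vehicle (log2 change -1.11 ± 0.25), and held in 19. OXA1L had 80.4, 28.1 and 139 CPM with sorafenib, against 251, 238 and 112 CPM with vehicle. Its groups overlapped (log2 change -1.19 ± 0.40, adjusted p = 0.0299), and with library 3, the deepest, as the 1 sorafenib light library the change was -0.38. DNAJC19 had 51.7, 41.1 and 67.5 CPM with sorafenib, against 119.8, 103 and 103 CPM with vehicle (log2 change -0.98 ± 0.27). TIMM8B had 102, 69.2 and 134 CPM with sorafenib, against 181, 161 and 196 CPM with vehicle (log2 change -0.78 ± 0.25). TOMM7, TIMM44 and TOMM20 fell by 0.78, 0.77 and 0.72 on the log2 scale. With library 3 as the 1 sorafenib light library, the log2 changes of TOMM5 (-0.57), DNAJC19 (-0.53), TOMM7 (-0.51), TIMM44 (-0.37), TIMM8B (-0.26) and TOMM20 (-0.19) were also negative and nearer 0.

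Among the rises, TIMM10 had 199, 163 and 150.4 CPM in sorafenib light libraries, against 83.7, 89.1 and 105 CPM in vehicle ones (log2 change 0.89 ± 0.22, adjusted p = 0.00477). It thus moved in opposite directions in the light and polysome fractions. MTX2 had 48.1, 15 and 48.6 CPM with sorafenib, against 17.5, 22.1 and 13.5 CPM with vehicle (log2 change 1.19 ± 0.33, adjusted p = 0.0111). Its sorafenib libraries 1 and 3 were high and library 2 lay within the vehicle range. SAMM50 had 103, 86 and 81.5 CPM with sorafenib, against 42.8, 46.2 and 43.2 CPM with vehicle, and rose by 1.04 ± 0.20 (adjusted p = 0.000936). SAMM50 is the 1 import gene that rose in both fractions, and TOMM5, TOMM7, TIMM8B, TIMM21 and DNAJC19 fell in both. TIMM44 and OXA1L fell in the light fraction and rose on polysomes. TIMM50 (0.85 ± 0.23) and GFER (0.81 ± 0.24) also rose in the light fraction, with log2 changes of 0.67 and 0.53 when library 3 was the 1 sorafenib light library. The remaining small TIM genes did not pass: TIMM8A had 78.7, 76.7 and 52.3 CPM with sorafenib, against 73.5, 54.7 and 65.4 CPM with vehicle (log2 change 0.08 ± 0.24). TIMM9 had 81, 52.4 and 73.8 CPM with sorafenib, against 59, 64.7 and 61 CPM with vehicle (log2 change 0.20 ± 0.24). TIMM10B had 53.4, 112 and 39.9 CPM with sorafenib, against 62.8, 46.9 and 52.5 CPM with vehicle, with library 2 alone high. TIMM13 had 207, 148 and 188 CPM with sorafenib, against 146, 126 and 148 CPM with vehicle (log2 change 0.38 ± 0.22).

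The third comparison tested whether the sorafenib effect differed between fractions, as the polysome effect minus the light effect on the log2 scale. For 12 import genes it was lower on polysomes and for 4 it was higher, which is 38.7% and 12.9%, whereas 10.7% of all genes tested were lower and 12.8% higher. All 6 small TIM genes were among the 12, with TIMM10 at -2.20 ± 0.30 (adjusted p = 8.56e-05), TIMM8A at -1.96 ± 0.33 (adjusted p = 0.000408), TIMM10B at -1.42 ± 0.42 and TIMM9 at -1.33 ± 0.33. TIMM13 stood at -1.09 ± 0.31, and TIMM8B at -0.97 ± 0.34 (adjusted p = 0.0457); with culture as a block TIMM8B missed the threshold (-0.94, adjusted p = 0.0578) and TIMM17B passed (-1.18, adjusted p = 0.0348). PAM16, TIMM17A, TIMM22, TIMM50, MTX2 and GFER lay between -1.37 and -1.07. The 4 genes with a higher effect on polysomes were OXA1L at 2.31 ± 0.56, PMPCB at 1.61 ± 0.31, TIMM44 at 1.45 ± 0.33 and PMPCA at 1.20 ± 0.32. None of the 3 small TOM subunits passed (adjusted p between 0.264 and 0.731), and their changes had the same sign in both fractions. The median was -1.03 in the small class, -0.62 in the large class and 0.02 over all genes tested. The groups of differences per culture did not overlap for 6 genes that were higher and 11 that were lower, against 22.5% and 17% of all genes.

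How firmly these 16 differences stood varied. The 4 higher ones and the lower ones of TIMM10 and TIMM8A held in all 19 alternatives. Without vehicle light library 1, and likewise without library 2, the lower calls dropped to 2, those of TIMM10 and TIMM8A, and without vehicle light library 3 they dropped to 3. With library 3 as the 1 sorafenib light library, which cannot speak to firmness, the median difference over all genes was 0.23, against 0.02 in the main analysis.

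The last comparisons set the polysome fraction against the light fraction within each treatment. Since the light fraction includes single ribosomes, a higher ratio means a larger share on several ribosomes relative to the other genes, and it is no ribosome count. In vehicle cultures 14 import genes were higher on polysomes and 4 lower, which is 45.2% and 12.9%, whereas 18.3% of all genes tested were higher and 17.8% lower. In sorafenib cultures 3 were higher and 5 lower, which is 9.7% and 16.1%, against 13.4% and 12.4% of all genes. The 2 treatments share no library, and the difference between them is the comparison tested above. With library totals as the only scale, 25 genes were higher and 2 lower in vehicle cultures and 11 higher and 1 lower in sorafenib cultures, with medians over all genes of 0.82 and 0.60.

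In vehicle cultures, the genes highest on polysomes relative to the light fraction were MTX2, TIMM10 and TIMM17B. TIMM17B had 56.4, 82.6 and 141 CPM in vehicle polysome libraries, against 27.2, 28.6 and 43 CPM in vehicle light ones (log2 ratio 1.51 ± 0.37). MTX2 stood at 2.06 ± 0.32 and TIMM10 at 1.73 ± 0.21, with groups that did not overlap. All 3 genes of the TIM23 channel passed, with TIMM23 at 1.40 ± 0.24 and TIMM17A at 1.35 ± 0.20, as did the carrier channel TIMM22 at 1.31 ± 0.21. Of the small TIM genes TIMM8A (1.03 ± 0.23), TIMM13 (0.99 ± 0.22) and TIMM10B (0.84 ± 0.29) also passed, while TIMM8B (0.11 ± 0.24) and TIMM9 (0.05 ± 0.23) did not. At the other end stood OXA1L, with 35.7, 18.3 and 15.9 CPM in vehicle polysome libraries, against 251, 238 and 112 CPM in vehicle light ones. Its log2 ratio was -3.10 ± 0.42 (adjusted p = 1.59e-05), and the ratio was negative in 3 of 3 cultures. PMPCB (-1.53 ± 0.22), SAMM50 (-1.02 ± 0.20) and TIMM44 (-0.65 ± 0.22) were lower on polysomes too.

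In sorafenib cultures the ratios of the 31 genes spanned a narrower range, given here as a description without a test. Over these genes the mean log2 ratio ran between -1.22 and 1.07 with an SD over genes of 0.639, against -3.10 to 2.01 with an SD of 1.06 in vehicle cultures. The vehicle low end was OXA1L alone, with PMPCB next at a mean of -1.545. The same spread over all genes tested was not computed. Among all genes, calls were also fewer in sorafenib cultures (13.4% higher, 12.4% lower) than in vehicle cultures (18.3% higher, 17.8% lower). The 5 genes lower on polysomes were all of the small class: TIMM9 at -1.28 ± 0.24, DNAJC19 at -1.03 ± 0.27, TIMM8A at -0.92 ± 0.24, PAM16 at -0.92 ± 0.24 and TIMM8B at -0.87 ± 0.25. None of these 5 calls held in all 19 alternatives, over which the number of lower genes ran between 0 and 10. TIMM9 had 25.5, 31.5 and 30.4 CPM in sorafenib polysome libraries, against 81, 52.4 and 73.8 CPM in sorafenib light ones. The 3 genes that were higher were PMPCA at 0.81 ± 0.23, TIMM44 at 0.80 ± 0.25 and TOMM70 at 0.63 ± 0.23 (adjusted p = 0.0476). TIMM44 had 30.5, 24 and 31.1 CPM in sorafenib polysome libraries, against 12.9, 15 and 19.4 CPM in sorafenib light ones. PMPCA had 117, 114 and 107 CPM in sorafenib polysome libraries, against 80.4, 58 and 53.2 CPM in light ones, and held in all 19 alternatives. TOMM70 had 138, 139 and 132 CPM in sorafenib polysome libraries, against 85.7, 71.1 and 103 CPM in light ones. OXA1L, lowest in vehicle cultures, had log2 ratios of -0.72, 0.93 and -1.43 in the 3 sorafenib cultures, against -2.81, -3.69 and -2.79 in the vehicle ones. The positive value belongs to culture 2, which holds the shallowest library, and the groups did not overlap. TIMM10 had ratios of -0.63, -0.37 and -0.41 with sorafenib, against 1.74, 1.80 and 1.63 with vehicle. With library 3 as the 1 sorafenib light library, the median log2 ratio over all genes was 0.17, against -0.004 in the main analysis.

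**Figure D5:**
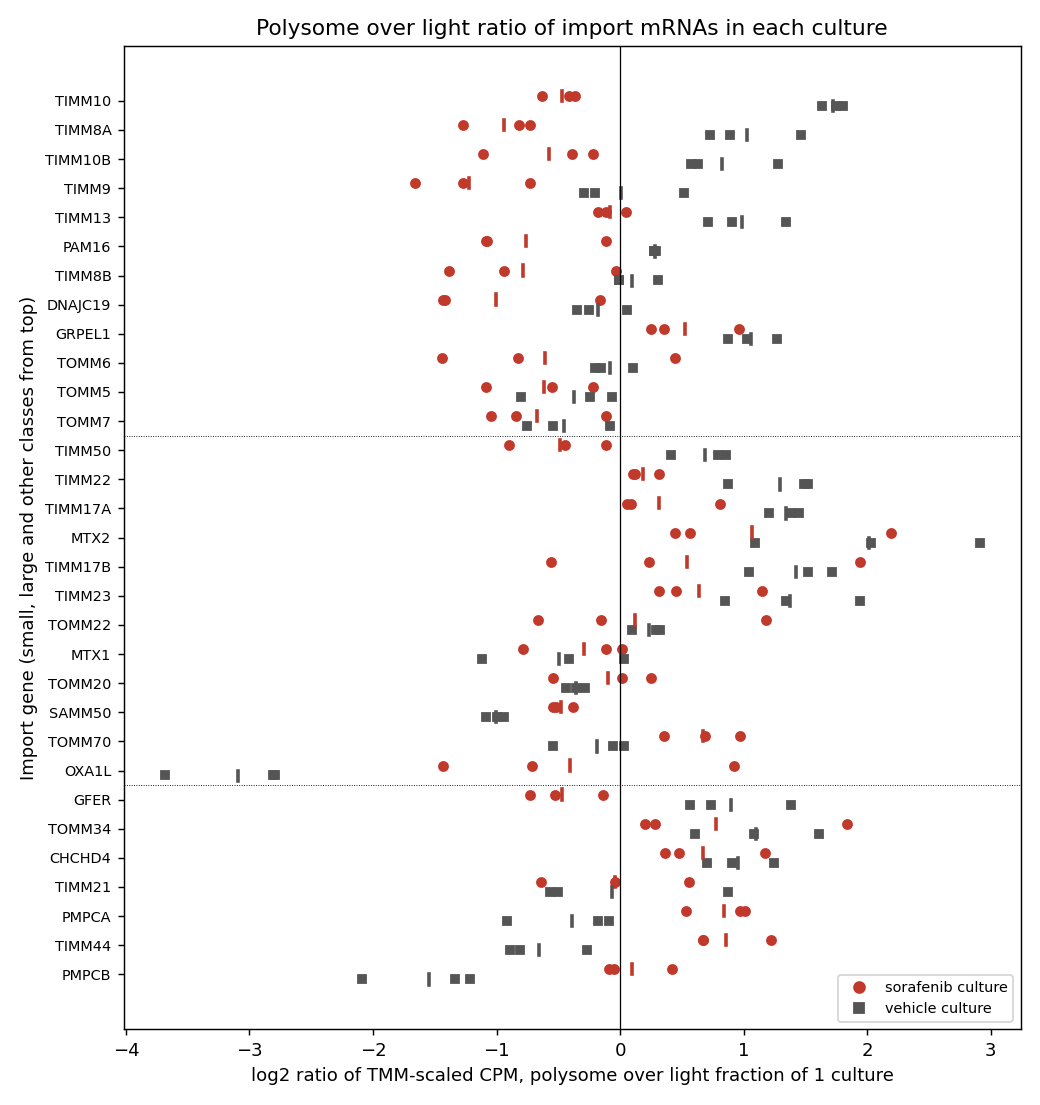
Log2 ratio of polysome over light CPM for each import gene in each of the 3 sorafenib and 3 vehicle cultures, with short lines for the means, ordered within class by the difference between treatments. TIMM10 lies between -0.63 and -0.37 in sorafenib cultures and between 1.63 and 1.80 in vehicle cultures, and OXA1L spans -3.69 to -2.79 in vehicle cultures.

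A second list of 30 import and quality-control genes outside the 31, of which 29 were tested, showed how neighbouring factors behaved. On polysomes 10 rose and 10 fell, 34.5% each, against 20.9% and 28.8% of all genes tested, with a median of -0.09. AIFM1, the partner of CHCHD4, rose by 2.18 ± 0.22, the motor chaperone HSPA9 by 2.49 ± 0.28 and the cristae organiser IMMT by 1.70 ± 0.23 on the log2 scale. HSPA9 averaged 495 ± 54.8 CPM in sorafenib polysome libraries and 88.2 ± 32 CPM in vehicle ones (SD, n = 3 each). Its partners in the motor went both ways. DNAJC19, DNAJC15 (-1.13 ± 0.27) and PAM16, whose value is uncertain, fell. GRPEL1 had no call, and the exchange factor GRPEL2 (1.26 ± 0.25) and the scaffold TIMM44 rose. The falls with the smallest p were those of the cristae factor MICOS13 (-2.02 ± 0.27), the TIM23 regulator ROMO1 (-2.09 ± 0.32) and the co-chaperonin HSPE1 (-2.06 ± 0.31). In the light fraction 12 rose and 3 fell, which is 41.4% and 10.3%, against 11.7% and 17.7% of all genes tested. IMMT rose by 1.23 ± 0.23, the HSPA9 escort DNLZ by 1.39 ± 0.31 and the cristae factor APOO by 1.09 ± 0.26. The aminopeptidase XPNPEP3 (-0.88 ± 0.24) and the TIM22 subunit TIMM29 (-0.89 ± 0.31) were among those that fell. For the difference between fractions 5 were higher and 8 lower, which is 17.2% and 27.6%, against 12.8% and 10.7% of all genes tested. The chaperonin HSPD1 (1.88 ± 0.41), HSPA9 (1.71 ± 0.39) and AIFM1 (1.32 ± 0.32) were higher, and MICOS13 (-2.78 ± 0.38), ROMO1 (-3.14 ± 0.44) and APOO (-2.07 ± 0.34) lower.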

How the data were processed

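RNA was sequenced from polysome and light gradient pools of 3 sorafenib and 3 vehicle HepG2 cultures. The authors deposited whole-number read counts per gene, not normalized; the genome build named is GRCh38.p12, per the submitters' processing notes. Aligner, counter, annotation and strand setting were not given in the sources used here. Per the labels' protocols, libraries were made from the RNA of pooled fractions, although the series is called ribosome profiling. Groups follow the labels.

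Testing used R 4.3.3 with edgeR 4.0.16 and limma 3.58.1. The function filterByExpr with a minimum count of 10 left 14955 of 57353 rows (the rest took no more than 4.54% of any library), TMM factors ranged from 0.637 to 1.41, and a quasi-likelihood test with 1 mean per group used all 12 libraries. P-values were adjusted by Benjamini-Hochberg over all genes tested. The SE was taken as |log2 fold change| divided by the root of F, and the common biological coefficient of variation was 0.245. The script was tested on simulated data. Alternatives covered scaling, the low-count filter, DESeq2 1.42.0, blocks, single fractions and leaving out libraries. Start windows are RefSeq's for GRCh38.p14. Figures were drawn with matplotlib 3.10.9.

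Members, classes and lists were chosen with earlier results of these data known. Values per library are given for the 3 highest and 3 lowest called changes of each comparison and for all small TIM genes, and others by mean, range or count. Related genes were named from the 3 rises and 3 falls with the smallest p, and DNAJC15 and GRPEL2 were added as motor partners of HSPA9. TIMM23B was added as the copy of TIMM23. Replicates carry the numbers of the titles. Nothing in the labels says that they were grown separately, and p-values then cover only the spread among libraries, which may be technical. Counts of replicates differed by more than sampling noise (chi-square over its degrees of freedom between 8.82 and 46.1). The titles tie the polysome and light libraries of each number and treatment to 1 culture, which pairs the fraction comparisons; the deviations of paired libraries correlated at 0.05, 0.04 and 0.04 in sorafenib and 0.14, -0.07 and 0.33 in vehicle cultures. Depth is given as counts per library, and is lowest in the sorafenib light fraction.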

Additional observations from a re-analysis of the deposited data

Results flagged for a closer look

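The sorafenib effect differed between the polysome and light fractions, by the test of that difference, for 16 import genes, given as the polysome minus the light effect on the log2 scale. It was lower on polysomes for the small TIM genes TIMM10 (-2.20), TIMM8A (-1.96), TIMM10B (-1.42), TIMM9 (-1.33), TIMM13 (-1.09) and TIMM8B (-0.97). It was also lower for the disulfide oxidase GFER (-1.37), the SAM receptor MTX2 (-1.30), the motor regulator PAM16 (-1.21), the TIM23 receptor TIMM50 (-1.20) and the channel genes TIMM22 (-1.11) and TIMM17A (-1.07). It was higher on polysomes for OXA1L (2.31), PMPCB (1.61), TIMM44 (1.45) and PMPCA (1.20). Groups of 3 are too small for the test of single libraries that stand apart.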

How the results depend on the processing

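Of 3007 values of single members under alternatives, 2631 kept their call in the same direction or stayed without a call, whatever their sign. Of the rest, 288 lost the call, 80 gained one and 8 reversed. Of 291 class medians, 243 moved by less than the spread between replicates. Without the low-count filter 6 members fell on polysomes (17 in the main analysis), 1 rose and 4 fell in the light fraction, 2 had a lower difference between fractions, and 9 were higher and 0 lower on polysomes than in the light fraction of sorafenib cultures, where edgeR's main test called 3 and 5 and DESeq2 10 lower. With library totals 12 rose and 2 fell in the light fraction, 25 were higher and 2 lower on polysomes in vehicle cultures, and 11 were higher and 1 lower in sorafenib cultures. That scale moved the vehicle polysome over light ratio of all genes together, with a median of 0.82 in place of -0.06. Under this common shift the ratio turned positive for TOMM5 (0.54), TOMM6 (0.82), TOMM20 (0.53), TOMM70 (0.72), TIMM21 (0.77), TIMM44 (0.24), DNAJC19 (0.73) and PMPCA (0.50). With vehicle polysome library 1 as TMM reference, and with the 6 light libraries alone, 3 fell in the light fraction (8 in the main analysis). Leaving out both shallow sorafenib light libraries leaves 1 library in that group, so calls under that fit say nothing about firmness. Leaving out each library in turn gave 4 to 6 rises and 11 to 18 falls on polysomes, 3 to 7 and 2 to 10 in the light fraction, 4 to 5 higher and 2 to 14 lower differences, 12 to 14 and 3 to 4 for vehicle ratios, and 1 to 9 and 1 to 9 for sorafenib ratios. Besides the cases in the report, the lower differences were 7 without sorafenib polysome library 3 or vehicle polysome library 2, 4 without sorafenib light library 1 and 5 without its library 3. The light falls were 2 without sorafenib light library 1 or 2 or vehicle light library 1 or 2, and 4 without vehicle light library 3, and the light rises were 3 without vehicle light library 1. The sorafenib ratios gave 1 higher and 2 lower without polysome library 1 or 3, 1 and 1 without light library 1, 9 and 2 without light library 3, and 9 lower without light library 2; without a vehicle light library 6 were higher and 1 or 2 lower. The causes of these moves were not tested. Treating the replicate number as a block gave 6 rises and 16 falls on polysomes, where GFER lost its call, and 5 and 8 in the light fraction; same-numbered sorafenib and vehicle libraries share only a number (correlations -0.20 to 0.02). Culture as a block gave 4 and 12 for the difference, 14 and 4 for vehicle and 4 and 5 for sorafenib ratios, where MTX2 gained a call (0.85), and it changed no call other than those named here and in the report. Over all genes, the share of rises among polysome calls was 42.1%, and 50.7% with library totals, 51.6% with the other TMM reference, 54.9% with the 6 polysome libraries alone and 70.1% without the filter, which called 3904 rises and 1663 falls of 45832 rows (3130 and 4306 in the main analysis). In the light fraction it was 39.8%, and 73.5% with library totals; for the difference 54.5%, and 33.6% with library totals and 81% without the filter; for the vehicle and sorafenib ratios 50.8% and 51.9%, and 89.3% and 85.9% with library totals. The median change of all genes on polysomes was -0.26, and -0.10 with the other TMM reference and 0.02 with the 6 libraries alone. A split by protein length was not run, since no protein sequences were used here. Depth limits the sorafenib light fraction most.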
